A study of Homo sapiens with 6 samples.

Results

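The transcripts described here are those of 10 human genes of phosphate and pyrophosphate handling: XPR1, SLC20A1, SLC20A2, SLC25A3, ANKH, ENPP1, ALPL, PPA1, PPA2 and PRUNE1. These genes serve to move inorganic phosphate across membranes, to supply pyrophosphate outside the cell, or to release phosphate from pyrophosphate, polyphosphate or phosphate esters. They were chosen by symbol, with earlier results of these data known, and all 10 were found among the 58051 genes of the count table. RNA sequencing after poly(A) selection gave their levels in HEK293T, an established line of embryonic kidney origin with the SV40 T-antigen. Both groups received a plasmid by lipofection and were harvested after 48 hours. In the empty vector group (3 libraries) the plasmid was pcDNA3.1- without an insert, and in the ppk1 group (3 libraries) it was pcDNA3.1-ppk1, which carries a bacterial polyphosphate kinase gene. Libraries of the same letter (B, C or D) in the 2 groups were matched biological replicates. The protocol allows a range of plasmid amounts and either of 2 lipofection reagents without assigning them to libraries, so differences in these cannot be told apart from the plasmid. It also names a tagged form of the ppk1 plasmid, whereas the labels of all 3 ppk1 libraries give the untagged one. The transfection was transient, the share of cells that took up the plasmid is not given in the sources used here, and the level of the bacterial transcript was not analysed here.

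Polyphosphate kinase builds a chain of phosphate groups from the terminal phosphate of ATP, so its product draws on the same phosphate that cells import, export and recycle. Animal cells take up inorganic phosphate mainly through the sodium-coupled carriers SLC20A1 and SLC20A2 and release it through XPR1, whose SPX domain binds inositol pyrophosphates. Inside the cell, SLC25A3 carries phosphate into the mitochondrial matrix for ATP synthesis, while the pyrophosphatases PPA1 and PPA2 split the pyrophosphate left by biosynthetic reactions into phosphate.

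The libraries held between 40851783 and 67122986 counts, and the ppk1 library was the deeper one of each pair. All 8 transcripts listed as typical of HEK293T cells (among them LIN28B, NEFM and PAX2) were above 1 CPM (counts per 1e6 counts of the scaled library) in every library. Of 8 transcripts of other cell types, PTPRC, CD3E, CDH5 and HBB had at most 4 counts in any library, and COL1A1 and COL3A1 were above 1 CPM throughout. Between these, PECAM1 had at most 9 counts in a library and ALB at most 34 (0.215 to 0.832 CPM). The summed level of that second list ran from 19.4 to 24.1 CPM in the empty vector libraries and from 22.8 to 23.2 CPM in the ppk1 libraries. That of the HEK293T list ran from 1026 to 1122 CPM in the empty vector libraries and from 990 to 1023 CPM in the ppk1 libraries. For the HEK293T list the groups did not overlap, as was so for 25.6% of all single genes tested. The part of either list in the results was not tested. In bulk RNA, fewer cells that carry a transcript and less of it per cell cannot be told apart.

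None of the 10 genes passed the test for a difference between ppk1 and empty vector cells. In edgeR's quasi-likelihood test with the replicate letter as a block, 0 of 10 had a Benjamini-Hochberg adjusted p below 0.05, and 0 had an unadjusted p below 0.05. DESeq2 called 0, and so did edgeR without the block. Among all 19574 genes tested, 9.08% were called, 23.8% had an unadjusted p below 0.05 and 2.4% were called without the block, and among the 11924 genes with a mean CPM at least that of ALPL, the lowest of the 10, 10.3% were called. Beside these shares, a count of 0 among 10 does not set the phosphate genes apart. The adjusted p-values of the edgeR test ran from 0.263 (ENPP1) to 0.826 (SLC20A2).

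For each transcript the fit gave an interval for its average change in bulk RNA. These intervals rest on a spread that edgeR largely shares across genes (prior degrees of freedom 47.5). Apart from ALPL, the standard errors were close, from 0.0727 to 0.0773. Pair differences nevertheless ranged over 0.358 log2 units for PPA2 and 0.101 for SLC20A1. The intervals thus do not reflect the spread of each gene alone, and they set no firm bound. All 10 of the 95% confidence intervals of the fold change (ppk1 over empty vector, each taken gene by gene) included no change, and together they spanned 0.803-fold to 1.19-fold. The estimates were above 0 on the log2 scale for 6 genes and below 0 for 4, with a median of 0.07, against 0.01 over all genes tested. The median absolute log2 fold change was 0.07, against 0.13 over all genes tested and 0.10 over those at or above the level of ALPL. In 0 of 10 genes were the CPM values of the groups fully separated, which was so for 25.6% of all genes tested. Only SLC20A1 had the same sign in all 3 pairs (1 of 10, against 43.8% of all genes tested).

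**Figure D1:**
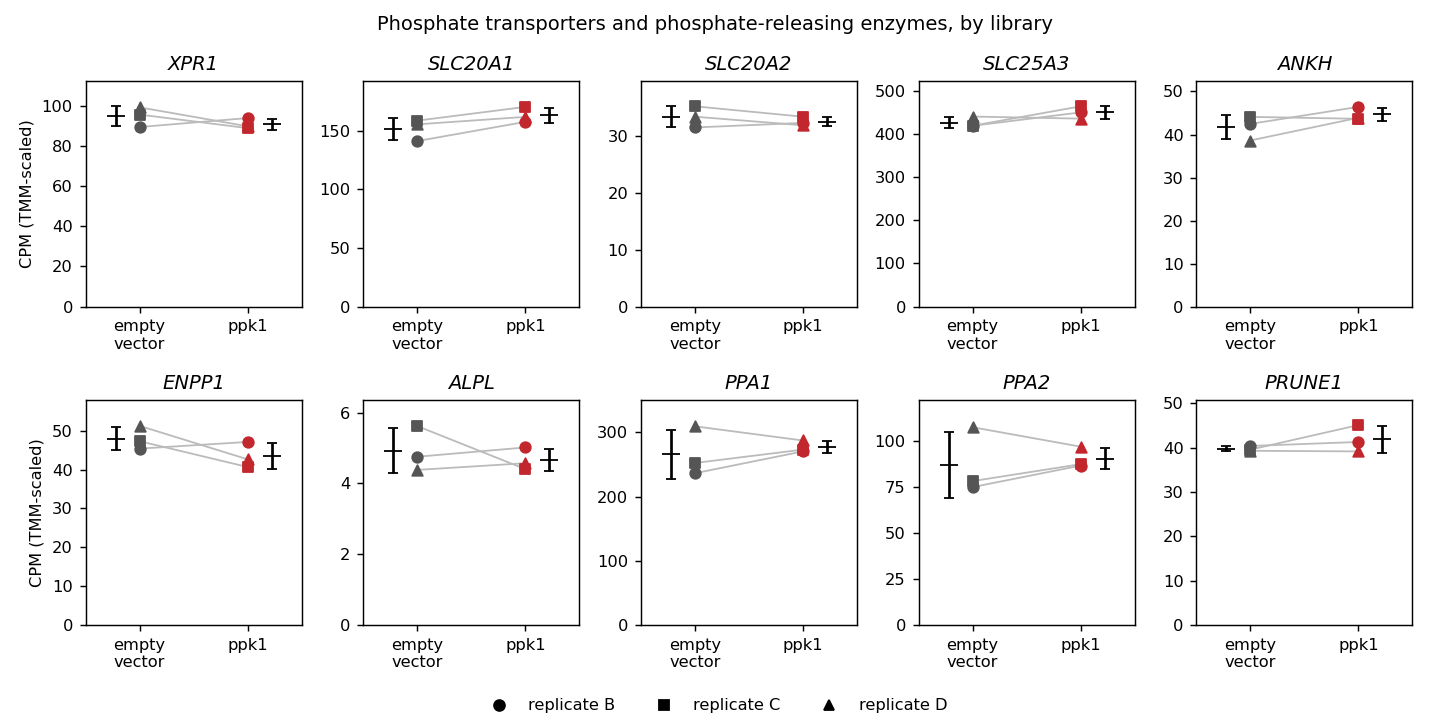
Levels of the 10 genes in each library, in CPM after TMM scaling, on axes that start at 0. Grey symbols are empty vector libraries and red symbols ppk1 libraries, lines join libraries of the same letter, and bars are the mean ± SD of 3 libraries; the groups overlap in every panel, from ALPL at 4.38 to 5.62 CPM up to SLC25A3 at 419.6 to 465 CPM.

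Of the carriers that import phosphate, SLC20A1 (ENSG00000144136, chromosome 2) encodes the sodium-phosphate carrier also known as PiT1. Its level was 141, 159 and 156 CPM in empty vector libraries B, C and D and 158, 171 and 162 CPM in ppk1 libraries B, C and D. The ppk1 library was the higher in each pair, but ppk1 B lay below empty vector C, so the groups overlapped. The group means were 152 ± 9.31 and 163 ± 6.50 CPM (mean ± SD, n = 3 libraries per group). The log2 fold change was 0.11 (SE 0.07, 95% interval -0.04 to 0.25), with an edgeR adjusted p of 0.394.

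SLC20A2 (ENSG00000168575, chromosome 8) encodes the second sodium-phosphate carrier, PiT2, which is mutated in familial calcification of the brain. It stood at 31.6, 35.3 and 33.5 CPM in empty vector libraries B, C and D and at 32.4, 33.5 and 32.0 CPM in the ppk1 libraries in the same order. All 3 ppk1 values lay inside the empty vector range. Its log2 fold change of -0.04 (SE 0.08, 95% interval -0.19 to 0.12) had the largest adjusted p of the 10 genes, 0.826 in the edgeR test.

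XPR1 (ENSG00000143324, chromosome 1) encodes the phosphate exporter of animal cells. Empty vector libraries B, C and D held 89.4, 95.6 and 99.2 CPM, and the ppk1 libraries 93.9, 88.9 and 89.8 CPM. The ppk1 values were lower in pairs C and D and higher in pair B, and all 3 lay below empty vector libraries C and D. The fitted log2 fold change was -0.06 (SE 0.07, 95% interval -0.21 to 0.09, edgeR adjusted p 0.682). None of these 3 carriers of the cell surface was thus told apart from no change at this spread between libraries.

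SLC25A3 (ENSG00000075415, chromosome 12), the mitochondrial phosphate carrier, had the most counts of the 10 genes. Its level was 419.6, 419.8 and 441 CPM in empty vector libraries B, C and D and 451, 465 and 436 CPM with ppk1. The ppk1 libraries B and C were above all empty vector libraries, while ppk1 D was below its partner. On the log2 scale the fold change was 0.08 (SE 0.07, 95% interval -0.07 to 0.23), and the edgeR adjusted p was 0.566. Counts are per gene, so its muscle-type and general splice forms are not separated.

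ANKH, ENPP1 and ALPL control pyrophosphate outside the cell, where it restrains mineral formation. ANKH (ENSG00000154122, chromosome 5) encodes a membrane protein needed for the release of pyrophosphate and its precursors. It was measured at 42.5, 44.1 and 38.6 CPM in empty vector libraries B, C and D and at 46.4, 43.6 and 43.9 CPM with ppk1. The spread came mainly from the low empty vector library D and the high ppk1 library B, and pair C was almost level. The fit gave a log2 fold change of 0.10 (SE 0.08, 95% interval -0.05 to 0.25, edgeR adjusted p 0.452).

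ENPP1 (ENSG00000197594, chromosome 6), the surface enzyme that makes pyrophosphate from nucleotide triphosphates, had the largest estimate and the smallest p of the 10. Its empty vector libraries B, C and D held 45.4, 47.3 and 51.2 CPM and its ppk1 libraries 47.1, 40.6 and 42.6 CPM. Libraries C and D of the ppk1 group were below every empty vector library, whereas ppk1 B was above its partner. In the edgeR test the log2 fold change was -0.14 (SE 0.08, 95% interval -0.30 to 0.01), at an adjusted p of 0.263. The pair differences were 0.05 in B, -0.22 in C and -0.27 in D. Without pair B the log2 fold change was -0.24 (SE 0.09), with an unadjusted edgeR p of 0.0069 and an adjusted p of 0.0538. It was -0.10 both without pair C (adjusted p 0.877) and without pair D (0.493), and the gene was called in none of these fits.

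ALPL (ENSG00000162551, chromosome 1), tissue-nonspecific alkaline phosphatase, cleaves pyrophosphate and other phosphate compounds at the cell surface. It was by far the scarcest of the 10 transcripts, with 179 to 335 counts in a library against at least 1336 for each of the others. Empty vector libraries B, C and D stood at 4.75, 5.62 and 4.38 CPM, and ppk1 libraries at 5.02, 4.40 and 4.57 CPM. Apart from the high value of empty vector C, the libraries were close together. Its log2 fold change of -0.07 had the largest error (SE 0.12, 95% interval -0.32 to 0.17, edgeR adjusted p 0.777), and without pair C the estimate was 0.07.

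PPA1 (ENSG00000180817, chromosome 10) and PPA2 (ENSG00000138777, chromosome 4) encode the soluble pyrophosphatase of the cytosol and that of the mitochondrion. PPA1 stood at 236, 252 and 309 CPM in empty vector libraries B, C and D and at 270.4, 273 and 287 CPM with ppk1. Values for PPA2 were 74.8, 78.0 and 107 CPM without the enzyme and 86.4, 87.2 and 96.7 CPM with it. Both genes showed the same arrangement: empty vector D was the highest of the 6 libraries, empty vector B and C the lowest, and the 3 ppk1 libraries lay between them. The difference was accordingly positive in pairs B and C and negative in pair D, at 0.19, 0.11 and -0.11 for PPA1 and 0.21, 0.16 and -0.15 for PPA2 on the log2 scale. The SD of the empty vector group was 14.4% of the mean for PPA1 and 20.6% for PPA2, the 2 largest of the 10 genes, against 3.28% and 6.33% in the ppk1 group.

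Fitted over all pairs, the log2 fold change was 0.07 for PPA1 (SE 0.08, 95% interval -0.08 to 0.22, edgeR adjusted p 0.632) and 0.07 for PPA2 (SE 0.08, 95% interval -0.08 to 0.23, edgeR adjusted p 0.607). Without pair D it was 0.13 for PPA1 (edgeR adjusted p 0.271) and 0.16 for PPA2 (unadjusted edgeR p 0.0319, adjusted p 0.169). Without pair B it was 0.0028 and 0.0041. The 2 estimates therefore rested on which pairs were used, and neither was called in any of these fits.

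PRUNE1 (ENSG00000143363, chromosome 1) encodes an exopolyphosphatase that cuts short polyphosphate chains. Its level was 40.4, 39.5 and 39.3 CPM in empty vector libraries B, C and D and 41.3, 45.1 and 39.2 CPM in the ppk1 libraries. Only ppk1 C stood away from the other 5 libraries. The log2 fold change was 0.07 (SE 0.08, 95% interval -0.08 to 0.22), with an edgeR adjusted p of 0.606. The fold change interval, 0.947 to 1.17, holds both a slightly lower and a slightly higher level.

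**Figure D2:**
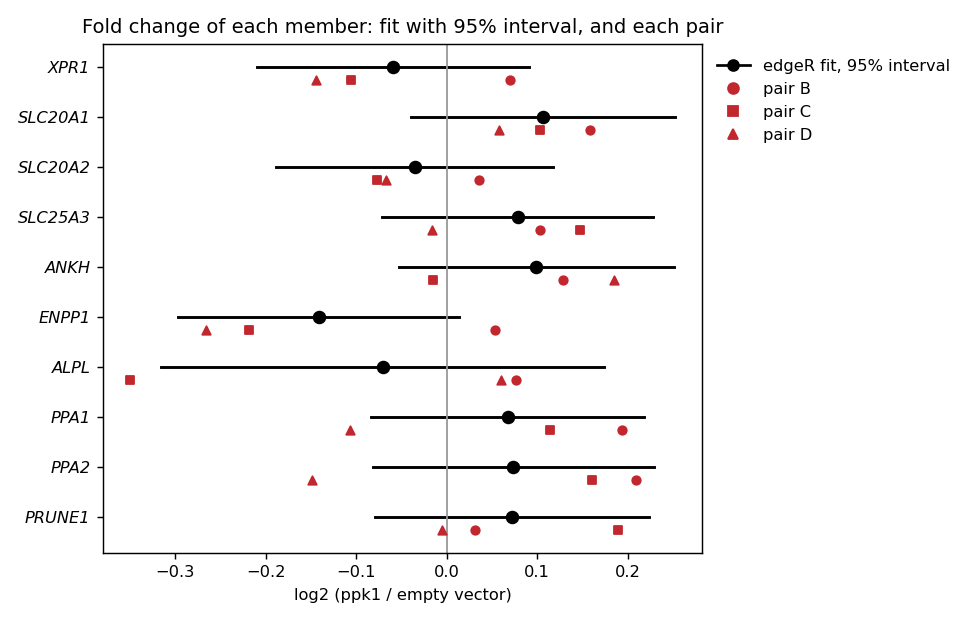
Log2 fold change (ppk1 over empty vector) of each gene, as the fitted value with its 95% interval (black) and as the difference in each matched pair (red). Every interval crosses 0, and the pair values of every gene except SLC20A1 lie on both sides of it.

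The pairs did not move alike. In pair B all 10 genes were higher in the ppk1 library, by a median of 0.09 on the log2 scale, where 52% of all genes tested and 56.2% of those at or above the level of ALPL were higher. In pair C 5 of the 10 were higher, beside 52.9% and 59.8% of these 2 sets of genes. In pair D 3 were, beside 49.9% and 49.7%. The ppk1 library of pair B was the deepest of the 6, and the part of depth in this was not tested. The 10 values of a pair share the same 2 libraries and their scaling, so they are not independent measurements.

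To set the genes side by side, CPM was divided by the length of the longest annotated transcript. On this scale of level per kb, PPA1 (75.5 ± 10.9 without and 78.6 ± 2.58 with ppk1, mean ± SD, n = 3) and SLC25A3 (70.1 ± 2.03 and 74.0 ± 2.35) came first. PPA2 (51.5 ± 10.6 and 53.5 ± 3.39) and SLC20A1 (44.9 ± 2.75 and 48.3 ± 1.92) followed. Within each of these couples the library values overlapped, so their order is not resolved. A clear gap separated them from PRUNE1, at 13.3 ± 0.190 and 14.0 ± 1.00 per kb.

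Lower still were XPR1 (11.2 ± 0.586 and 10.7 ± 0.316 per kb), SLC20A2 (9.15 ± 0.510 and 8.92 ± 0.214), ENPP1 (6.45 ± 0.402 and 5.84 ± 0.444), ANKH (5.08 ± 0.344 and 5.44 ± 0.187) and ALPL (1.90 ± 0.245 and 1.80 ± 0.122). Neighbours in this order did not overlap, except ENPP1 and ANKH. PPA1, SLC25A3, PPA2 and SLC20A1 were thus the higher transcripts on this scale, and the 3 genes of extracellular pyrophosphate the lowest. The order depends on the annotated length. The longest transcripts of SLC25A3 (6087 bases) and PPA1 (3524 bases) exceed their longest principal coding transcripts (1678 and 1295 bases), and with the latter SLC25A3 stood at 250.1 to 277 per kb, above PPA1 at 183 to 239. With the median transcript length of each gene, SLC20A1 (mean of the 6 libraries 236 per kb) and XPR1 (126) stood above PPA2 (118) and ANKH (62.0) above SLC20A2 (49.8), while ALPL (2.25) remained the lowest.

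**Figure D3:**
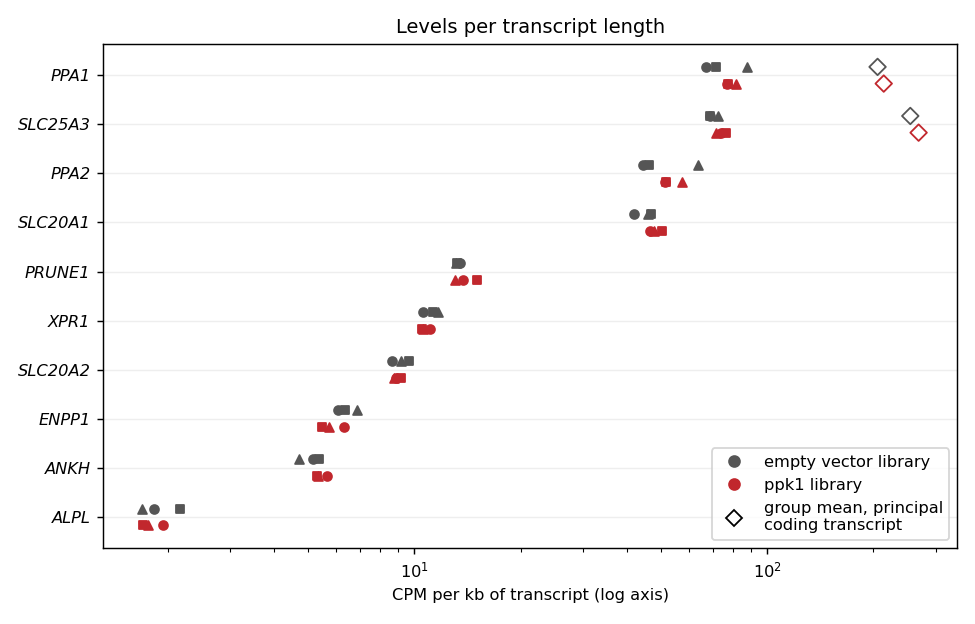
Level of each gene per kb of its longest annotated transcript, on a log axis, for each empty vector (grey) and ppk1 (red) library. Open diamonds give the group means of SLC25A3 and PPA1 with their principal coding transcripts, where the order of these genes is the reverse.

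Ratios between 2 genes of the same library do not depend on how libraries are scaled. The level of SLC20A1 per kb was 4.84, 4.86 and 5.03 times that of SLC20A2 in empty vector libraries B, C and D and 5.27, 5.51 and 5.48 times in the ppk1 libraries. This ratio was higher with ppk1 in all 3 pairs and the groups did not overlap, although neither gene was called. For the exporter against the more abundant importer, XPR1 over SLC20A1, the ratio was 0.252, 0.240 and 0.254 without the enzyme and 0.237, 0.208 and 0.221 with it. It was lower in all 3 pairs, again without overlap. Both ratios contain SLC20A1, so they are not separate observations.

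The other ratios fixed for description showed no such separation. PPA1 over PPA2 was 1.51, 1.55 and 1.38 in empty vector libraries B, C and D and 1.496, 1.497 and 1.42 in the ppk1 libraries. In empty vector D, where both transcripts were highest, the ratio was the lowest of the 6. ENPP1 over ALPL ran from 2.93 to 4.07 in the empty vector libraries and from 3.21 to 3.27 with ppk1. Of all 45 ratios that 10 genes allow, 8 had groups that did not overlap. The share among ratios of other genes was not computed (of single genes, 25.6% do not overlap), so nothing is read from that count or from the separate ratios above. No p is given for a ratio, because the genes were chosen together and with earlier results of these data known.

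**Figure D4:**
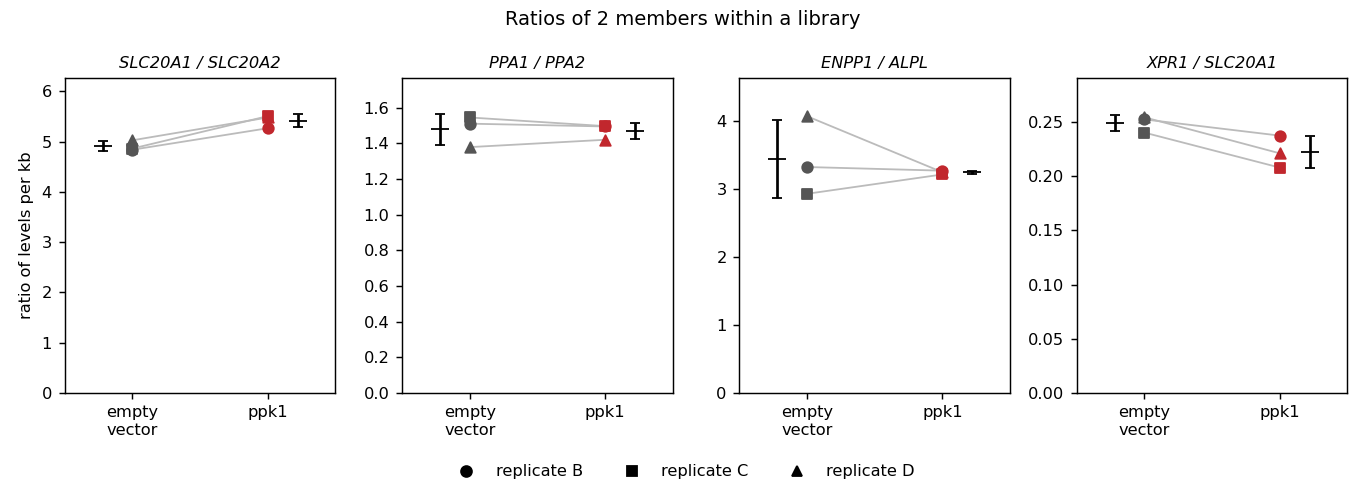
Ratio of levels per kb within each library for 4 couples of genes, on axes that start at 0, with empty vector libraries in grey, ppk1 libraries in red, lines joining libraries of a letter and bars for the mean ± SD of 3 libraries. The groups are apart for SLC20A1 over SLC20A2 (4.84 to 5.03 against 5.27 to 5.51) and for XPR1 over SLC20A1 (0.240 to 0.254 against 0.208 to 0.237), and overlap for the other 2.

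Of their transcript sequence, cut into stretches of 50 bases, 4.34% of that of PPA1 and 1.56% of that of SLC25A3 also occurs in other genes of GENCODE release 29, and at most 0.587% for each of the other 8. Pseudogenes were looked up only by symbol, and those named after SLC25A3 and SLC20A1 had between 0 and 5 counts in all 6 libraries together. Loci under other names, such as AC008429.2 and AC104297.1 that share sequence with PPA1, were not examined. Low counts of a pseudogene also do not show how reads of shared sequence were assigned. Exons of SLC20A2 overlap SMIM19 and exons of ENPP1 overlap AL139805.1 on the opposite strand, and SLC25A3 holds SNORA53 on its own strand. Whether the counting used the strand is not given in the sources used here, so the values of SLC20A2 and ENPP1 are less certain. Strand cannot separate SNORA53 from SLC25A3, so the value of SLC25A3 is less certain under either setting.

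Around these 10 genes, 67 further genes of phosphate handling were examined in 4 lists, of which 43 had enough counts to be tested. Levels rose for 3 of them (SLC25A10, ACP2, SLC9A3R1) and fell for 3 (SLC37A2, FGFR3, STC1), which is 14% of those tested beside the 9.08% of all genes (4.04% called higher and 5.04% called lower). Only SLC37A2 and FGFR3 were also called without the block, and the same was so with DESeq2. Without replicate C only SLC37A2 was called.

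Among 9 other phosphate carriers of organelles, all tested, 1 rose and 1 fell, with a median log2 fold change of 0.06. SLC37A2, a sugar phosphate and phosphate exchanger of the endoplasmic reticulum, fell from 6.31, 6.18 and 5.65 CPM in empty vector libraries B, C and D to 3.98, 2.94 and 3.85 CPM with ppk1. The groups did not overlap, and the log2 fold change of -0.76 (SE 0.12) had an edgeR adjusted p of 2.0e-05 (0.0133 without replicate C, 0.0109 without the block). SLC25A10, which exchanges dicarboxylates for phosphate across the inner mitochondrial membrane, rose from 27.3 ± 2.70 to 33.4 ± 4.16 CPM (mean ± SD, n = 3). At a log2 fold change of 0.28 (SE 0.08) it was called (edgeR adjusted p 0.0165). The edgeR adjusted p was 0.159 without the block, 0.480 without replicate C and 0.106 without replicate D. With upper-quartile scaling it was 0.0528, and the DESeq2 adjusted p was 0.0786. SLC25A10 shares 41.2% of its transcript sequence with AC139530.2, so its counts are uncertain. The most abundant carriers of this list were SLC37A4, the glucose 6-phosphate exchanger, with a log2 fold change of 0.02 (edgeR adjusted p 0.907), and SLC25A23, an exchanger of ATP-magnesium and phosphate, with 0.20 (0.083). For SLC25A23 the adjusted p was 0.0429 without replicate B, 0.752 without replicate C, 0.144 without replicate D and 0.239 without the block.

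In the list of other surface and vesicle transporters, 4 of 13 genes were tested and 0 were called by edgeR (1 at an unadjusted p below 0.05). That 1 was KIDINS220, whose protein is a partner of XPR1. It was measured at 119, 136 and 155 CPM in empty vector libraries B, C and D and at 115, 124 and 116 CPM with ppk1, lower in each pair. The log2 fold change of -0.20 (SE 0.08) had an edgeR adjusted p of 0.0939, and it was -0.28 with an adjusted p of 0.0236 without replicate B. The adjusted p was 0.492 without replicate C, 0.375 without replicate D (log2 fold change -0.11) and 0.247 without the block. SLC17A5, a lysosomal sialic acid exporter of the same family as several phosphate carriers, had a log2 fold change of -0.02 (edgeR adjusted p 0.883).

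Of 27 other phosphatases and phosphodiesterases, 18 were tested, 1 rose and 0 fell, with a median log2 fold change of 0.01. ACP2, a lysosomal acid phosphatase, rose from 18.7, 21.5 and 21.6 CPM in empty vector libraries B, C and D to 22.6, 29.3 and 24.4 CPM, without overlap. The log2 fold change was 0.30 (SE 0.08, edgeR adjusted p 0.0126). The edgeR adjusted p was 0.146 without the block and 0.571 without replicate C, and the DESeq2 adjusted p was 0.0663. Exons of ACP2 overlap NR1H3 on the opposite strand. The most abundant tested members of this list, ACP1 (a small cytosolic phosphatase) and NUDT3, had log2 fold changes of 0.03 and 0.06 (edgeR adjusted p 0.863 and 0.657).

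Among 18 genes of hormonal and extracellular phosphate control, 12 were tested, of which 1 rose and 2 fell, with a median log2 fold change of -0.02. FGFR3, a fibroblast growth factor receptor, fell from 68.3, 69.1 and 59.6 CPM in empty vector libraries B, C and D to 53.4, 48.2 and 51.5 CPM. Its groups did not overlap, and the log2 fold change was -0.36 (SE 0.08, edgeR adjusted p 0.00109, 0.0329 without the block and 0.305 without replicate C). STC1, which encodes the hormone stanniocalcin, fell by 0.70 on the log2 scale (SE 0.19, edgeR adjusted p 0.0141) on 30 to 114 counts in a library. The CPM values of its groups overlapped. Its edgeR adjusted p was 0.23 without the block and 0.424 without replicate C, and its DESeq2 adjusted p was 0.196. SLC9A3R1, a scaffold that anchors kidney phosphate transporters, rose by 0.26 (SE 0.08, edgeR adjusted p 0.0285), and the CPM values of its groups overlapped. Its exons overlap MIR3615 on the same strand and AC016888.1 on the opposite strand. The call of SLC9A3R1 was lost without the block (edgeR adjusted p 0.194), without replicate C (0.529) and without replicate D (0.231). It was also lost with upper-quartile scaling (edgeR adjusted p 0.0779) and in DESeq2 (adjusted p 0.103). STC2 and FGFR1, the most abundant of the list, had log2 fold changes of -0.02 and 0.10 (edgeR adjusted p 0.893 and 0.450).

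**Figure D5:**
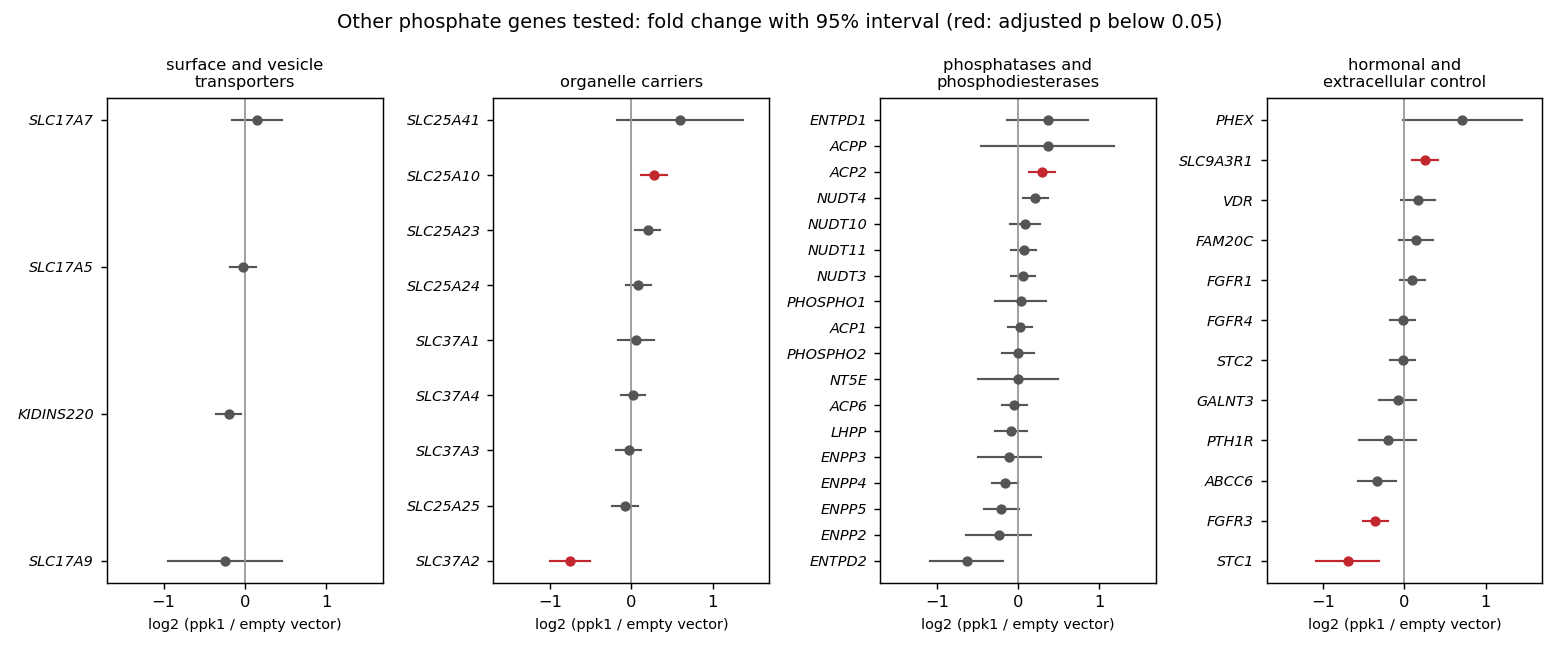
Log2 fold change (ppk1 over empty vector) with its 95% interval for the 43 tested genes of the 4 other phosphate lists, 1 panel per list. Red marks the 6 genes with an edgeR adjusted p below 0.05, of which 3 lie above 0 and 3 below.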

How the data were processed

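The authors deposited 1 table of counts, whole numbers per Ensembl gene with 1 column per library, and all 6 columns matched a sample by name (0 rows named no gene). Per the submitters' processing notes, bcl2fastq 2.20, Trimmomatic, STAR and HTSeq were used; the genome build, annotation release and strand setting are not given in the sources used here, so no positions are printed. Symbols are those of the table.

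All genes were fitted with edgeR 4.0.16 in R 4.3.3 (filterByExpr, minimum count 10; TMM scaling; glmQLFit and glmQLFTest; Benjamini-Hochberg threshold 0.05), with the replicate letter as a block, because the series' design text calls same-letter libraries matched. As a check, the departures of the 2 libraries of a letter from the mean of their group correlated at 0.109 (B), 0.135 (C) and 0.0476 (D) across genes. Libraries of different letters correlated at -0.120 to -0.0051. Centring each group on its own mean ties matched and unmatched values together, so this check cannot settle the pairing. Standard errors are the absolute log2 fold change over the square root of F, and 95% intervals use the test's degrees of freedom. CPM is the count per 1e6 counts of the TMM-scaled library, and pair differences used log2 CPM with a prior count of 2. Libraries of a group are separate replicates per the design text. In the libraries, 3 counts correspond to 0.0449 to 0.0734 CPM. Lengths, chromosomes and overlaps come from GENCODE release 29, matched by Ensembl identifier. The fitting function was tested on simulated data.

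The 10 genes and the 4 lists were chosen with earlier results of these data known. The rule names all 10 genes and, from each list, up to 6 called genes by smallest adjusted p and the 2 tested genes of highest mean CPM. Alternatives were the fit without the block, RLE and upper-quartile scaling, 2 other filters, DESeq2 1.42.0, each replicate left out, and, for levels per kb, median transcript length. The fit without the mitochondrially encoded genes and the principal transcript length were added after the data were seen.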

Additional observations from a re-analysis of the deposited data

How the results depend on the processing

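No phosphate gene was called under any of the 10 alternatives, including the fit with no replicate block (0 of 10) and each fit with 1 replicate left out (0 in each). Among all genes tested, 12.5% were called without replicate B, 2.06% without C and 9.06% without D. At an unadjusted p below 0.05 there was 1 phosphate gene under upper-quartile scaling (ENPP1), 1 without replicate B (ENPP1) and 1 without replicate D (PPA2). Among all genes these shares were 22.6%, 25.6% and 22.5% in the same fits. Of the 100 values of the 10 genes, 99 kept their sign; ALPL ran from -0.156 (without replicate B) to 0.0704 (without C). Of 140 values for the 14 other named genes, 17 lost a call, 2 gained one and 7 changed sign, none of them of a called gene: SLC37A4 was -0.0024 with upper-quartile scaling, and with a replicate left out ACP1 ran from -0.0049 to 0.0514, SLC17A5 from -0.116 to 0.0301, SLC37A4 from -0.0145 to 0.0544 and STC2 from -0.182 to 0.0715. In the 4 other lists 6 genes were called, against 2 without the block, 2 with DESeq2 and 1 (without C) to 9 (without B) with a replicate left out. Calls over all genes moved the same way, from 1777 (9.08% of those tested) to 470 without the block (2.4%), 757 with DESeq2 (4.81%), 406 without C (2.06%) and 2435 without B (12.5%); the cause was not tested. Per kb, the highest of the 10 genes was 41.6 times the lowest, 168.8 times with median and 141.3 times with principal transcript lengths, and 38.3 to 43.5 times with a replicate left out. The block changed the call of no phosphate gene. The counts of ALPL limit its precision.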

Other observations

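Several phosphate genes of specialised tissues were at or near the floor of detection in these cells. The kidney and intestinal sodium-phosphate carriers SLC34A1, SLC34A2 and SLC34A3 had at most 12 counts in any library, the placental and intestinal alkaline phosphatases ALPP and ALPI at most 3, and the phosphate hormone FGF23 and its co-receptor KL at most 19. They were among 24 genes of the 4 other lists that did not pass the filter on low counts. In the edgeR fit without that filter 21 of the 24 gave a value, and 0 were called (0 at an unadjusted p below 0.05). Among all genes of that fit 4.57% were called and 13.9% had an unadjusted p below 0.05. At such low counts a change could hardly be called, so nothing is read from the count of 0.

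The 4 NUDT hydrolases that cut inositol pyrophosphates and polyphosphate were all measured. Log2 fold changes were 0.06 for NUDT3, 0.21 for NUDT4, 0.09 for NUDT10 and 0.07 for NUDT11, and 0 were called by edgeR (adjusted p from 0.0644 for NUDT4 to 0.657 for NUDT3, 1 at an unadjusted p below 0.05, beside 9.08% called and 23.8% at an unadjusted p below 0.05 among all genes tested). Leaving out replicate D, NUDT4 was called (edgeR adjusted p 0.0271, log2 fold change 0.25). Its edgeR adjusted p was 0.184 without replicate B, 0.675 without replicate C and 0.149 without the block. For NUDT3, 43.6% of the transcript sequence also occurs elsewhere, chiefly in RPS10-NUDT3, as does 13.4% for NUDT10 (with NUDT11), 11.5% for NUDT11 (with NUDT10) and 12.1% for NUDT4 (with NUDT4B and NUDT4P2 among others), so the counts of all 4 are uncertain.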
